A study of Drosophila melanogaster with 12 samples.

Results

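The genes described here encode parts of the machinery that brings proteins into mitochondria and folds them there. They were chosen by name: 10 genes, of 17023 gene identifiers in the count files, whose FlyBase identifier carries the symbol Tom70, Tom40, Tom20, Tim8, Tim9a, Tim10, Tim13, Roe1, Hsp60A or Hsc70-5. All 10 have a row in the files. A filter on low counts left 8 of them among the 9024 genes tested, and Tim10 and Tim13 did not pass it.

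Nearly all mitochondrial proteins are made on cytosolic ribosomes and imported afterwards. At the outer membrane, the receptors Tom20 and Tom70 bind the arriving precursor and the pore protein Tom40 lets it pass. Small Tim proteins escort hydrophobic precursors across the intermembrane space, and in the matrix the Hsp70 chaperone, its nucleotide exchange factor of the GrpE type and the Hsp60 chaperonin pull in and fold the chain. The translation of these mRNAs therefore bears on how much import machinery a cell makes. The libraries described here measure amounts of mRNA, and neither the number of ribosomes on each mRNA nor protein was measured.

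RNA-seq libraries came from S2 cells, an embryonic Drosophila melanogaster line with hemocyte-like features. Cells received 1 µg of dsRNA against GFP, which was the control, or against porthos (CG9253, symbol pths), a DEAD-box RNA helicase gene. They were passaged after 48 h, harvested 3 days later, and exposed to cycloheximide at 100 µg/ml for 3 min before lysis, in every group. Lysate kept unfractionated is called input. Polysomes, that is mRNAs with several ribosomes on them, were taken from a sucrose gradient of 10% to 50%. The 4 groups, input GFP dsRNA, input porthos dsRNA, polysome GFP dsRNA and polysome porthos dsRNA, had 3 libraries each. Input RNA was extracted with TRIzol and polysome RNA with phenol and chloroform, so fraction and extraction cannot be told apart in any comparison of polysomes with input. The dsRNA treatment reduces porthos mRNA and does not remove it, and 1 cell line was used.

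Libraries held 7559406 to 11918941 counts. porthos mRNA fell in input from 222.8 ± 2.99 to 103.1 ± 6.43 CPM (SD, n = 3), where CPM is the count scaled to library size (TMM), and on polysomes from 320.0 ± 6.08 to 116.2 ± 24.0 CPM. The 10 plasmatocyte markers had 969.3 to 1844 CPM in sum. Most of it was Col4a1 (385 to 901.8 CPM), vkg (184.8 to 366.9 CPM) and crq (216.4 to 253.9 CPM). NimC1, Sr-CI and He were nearly absent, with 1.14, 2.04 and 2.70 CPM at most. The fat body markers summed to 1.61 CPM at most, and the larval serum protein gene Lsp1alpha had none. The 3 neuronal markers summed to 79.0 to 164 CPM, most of it elav, with nSyb at 3.44 CPM at most. Replicate 3 of the polysome porthos dsRNA group stood apart on the second principal component, at -47.8 where the other 11 libraries lay between -2.27 and 13.7, and results that rest on it are given without it. In bulk RNA, fewer cells of a type and less RNA per cell cannot be told apart.

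The outer membrane genes differ in size and position. Tom70 (FBgn0032397) lies on chromosome 2L from 12035984 to 12038511 on the minus strand, in dm6 coordinates counted from 1, and its longest coding sequence encodes 589 residues. Tom40 (FBgn0016041; X, 7736893 to 7739978, plus strand) encodes 344 residues, but its exons sum to 2395 bp, so that most of its mRNA is noncoding. Tom20 (FBgn0036928; 3L, 20000644 to 20002446, plus strand) encodes 171 residues.

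The small Tim genes have the shortest coding sequences of the 10. Tim8 (FBgn0027359; X, 11368445 to 11369283, plus strand) encodes 88 residues and Tim9a (FBgn0030480; X, 13385210 to 13385893, plus strand) 95. Tim10 (FBgn0027360; 2R, 21690215 to 21691139, minus strand) and Tim13 (FBgn0036204; 3L, 11774060 to 11774501, minus strand) encode 92 residues each.

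The matrix genes are Roe1 (FBgn0014877; 2R, 13554077 to 13555606, plus strand), the GrpE-type exchange factor of 213 residues, Hsp60A (FBgn0015245; X, 11108482 to 11112308, plus strand), the chaperonin of 573 residues, and Hsc70-5 (FBgn0001220; 2R, 14252598 to 14256192, minus strand), the mitochondrial Hsp70 of 686 residues.

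Tim10 and Tim13 could not be measured in these files. Tim10 had 0 counts in all 12 libraries. Its exons share 691 of 762 bp (90.7%) with CG42497, a second gene annotated on the same strand, which also had 0 counts in all 12 libraries. How reads in shared exons were counted is not given in the sources used here, and the part of this overlap in the zeros was not tested. Tim13 overlaps no annotated gene and had 1 count in all, in replicate 2 of the input GFP dsRNA group. A count of 0 allows up to 3 counts, which is 0.262 to 0.383 CPM depending on the library, and covers counting error only.

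The other 8 were well covered, with 181 to 11699 counts per library. Their spread between replicates was a coefficient of variation of 0.52% to 17.2%, with a median of 7.03% over the 32 combinations of gene and group. Levels between genes were compared per kilobase of exon (RPKM). In input with GFP dsRNA Hsc70-5 had the highest level, 336 ± 6.49 RPKM (SD, n = 3). Hsp60A followed with 205 ± 18.4 RPKM and Tom20 with 198.6 ± 7.54 RPKM, and this pair did not differ beyond its spread. Tom70 (85.2 ± 3.65 RPKM), Roe1 (79.3 ± 5.93 RPKM) and Tim8 (75.9 ± 7.10 RPKM) formed a middle group whose ranges overlapped. Tom40 (55.97 ± 2.44 RPKM) and Tim9a (40.7 ± 2.95 RPKM) were lowest. The highest and the lowest of the 8 differed 8.26-fold, and all 8 lay above the 73rd percentile of the 8818 genes with a known length.

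On polysomes the order was another one. With GFP dsRNA Tom20 led with 407.7 ± 42.6 RPKM, above Hsc70-5 at 204 ± 1.06 RPKM and Tim8 at 169.7 ± 18.8 RPKM. Roe1 had 122.6 ± 13.1 RPKM there. Hsp60A at 91.6 ± 1.12 RPKM and Tim9a at 86.2 ± 10.2 RPKM overlapped. Tom40 (48.98 ± 2.82 RPKM) and Tom70 (41.5 ± 2.97 RPKM) were lowest. The receptor Tom70, in input level with Tim8 and Roe1, had less than either on polysomes.

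**Figure D1:**
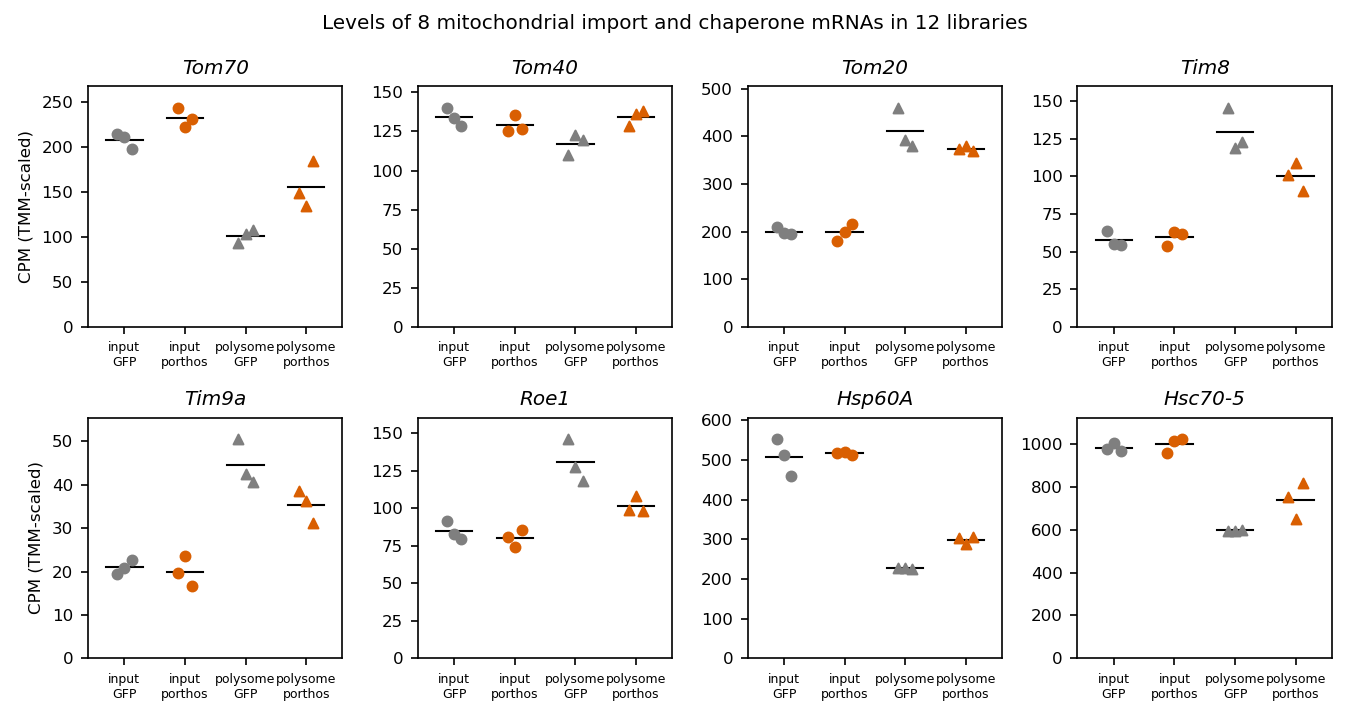
Each panel shows 1 gene, with CPM after TMM scaling on a vertical axis that starts at 0 and the 4 groups on the horizontal axis. Points are single libraries (circles input, triangles polysome, grey GFP dsRNA, orange porthos dsRNA) and lines are group means. The GFP and porthos groups overlap in input for 7 of the 8 genes, and on polysomes for none. Over all genes tested, such groups lay apart for 24.9% in input and 29.6% on polysomes.

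The first comparison was of polysome with input in control cells, the polysome loading of each mRNA relative to the average mRNA. Tom20, Tim8, Tim9a and Roe1 were enriched on polysomes, and Tom70, Hsp60A, Hsc70-5 and Tom40 were depleted. The 2 import receptors, Tom20 and Tom70, thus stood on opposite sides, and so did the matrix Hsp70 and its exchange factor. All 8 passed edgeR's quasi-likelihood test with GFP dsRNA at an adjusted p (Benjamini-Hochberg over all genes tested) under 0.05, 4 higher and 4 lower. Of all genes tested 55.4% passed it, 26.5% higher and 28.9% lower, so passing is common here. In 8 of 8 genes the polysome libraries lay apart from the input libraries, as they did for 64.4% of all genes.

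Among the outer membrane genes, Tom20 had 208.9, 196.7 and 194.9 CPM in the 3 input and 460.1, 392 and 380.4 CPM in the 3 polysome libraries with GFP dsRNA. Its loading was 1.04 ± 0.08 on the log2 scale (SE; adjusted p = 2.9e-10). Tom70 had 214.5, 210.9 and 197.6 CPM in input and 93.2, 102.7 and 107.5 CPM on polysomes. Every polysome library lay below every input library, and the loading was -1.04 ± 0.09 (adjusted p = 1.9e-09). Tom40 had 128.5 to 140.1 CPM in input and 109.7 to 122.7 CPM on polysomes, a loading of -0.19 ± 0.07 (adjusted p = 0.021). The Tom40 call was lost in 10 of 22 alternative analyses, among them scaling by library size alone (-0.06, adjusted p = 0.47). It was also lost without replicate 1 or 2 of the input GFP dsRNA group, without any 1 of the 3 input porthos dsRNA libraries, and without replicate 1 or 3 of the polysome GFP dsRNA group (-0.14 to -0.16, adjusted p from 0.062 to 0.15).

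Both measured small Tim genes were well above their input level on polysomes. Tim8, whose yeast counterpart forms an escort complex with Tim13, had 64.0, 54.7 and 54.6 CPM in input and 145.5, 119 and 122.9 CPM on polysomes with GFP dsRNA, a loading of 1.16 ± 0.09 (adjusted p = 4.5e-10). Tim9a, whose yeast counterpart pairs with Tim10, had 19.5, 20.9 and 22.6 CPM in input and 50.4, 42.4 and 40.5 CPM on polysomes, a loading of 1.08 ± 0.13 (adjusted p = 1.0e-07).

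Of the matrix genes, Hsp60A was the most depleted, with 552, 512 and 461 CPM in input and 229, 228.7 and 224 CPM on polysomes. Its loading was -1.16 ± 0.07 (adjusted p = 2.1e-11). Hsc70-5 had 978, 1003 and 966 CPM in input and 596, 595 and 601 CPM on polysomes, a loading of -0.72 ± 0.08 (adjusted p = 2.5e-08). Roe1 had 91.5, 82.5 and 79.4 CPM in input against 145.8, 127 and 118 CPM on polysomes, a loading of 0.63 ± 0.08 (adjusted p = 7.0e-07).

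Loading followed coding length among these genes, as it did among all genes tested. From the shortest coding sequence to the longest, Tim8 (264 bp), Tim9a (285 bp), Tom20 (513 bp) and Roe1 (639 bp) were above 0, Tom40 (1032 bp) was just below 0, and Hsp60A (1719 bp), Tom70 (1767 bp) and Hsc70-5 (2058 bp) were well below. Spearman's rho between coding length and loading was -0.905 over the 8 genes and -0.726 over 8419 tested genes with a coding sequence. These values are descriptions, since all genes were measured in the same 6 libraries. The 1708 tested genes with up to 1100 bp of exon had a median loading of 0.65, against which Tim8, Tim9a and Tom20 lay higher and Roe1 about level.

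After a correction for gene length within every library, 5 of the 8 loadings passed in place of 8. The length used was the summed exon length, not the coding length, so loading beyond coding length was not tested. Tom20 (0.54), Tim8 (0.47), Tom70 (-0.89), Hsp60A (-1.005) and Hsc70-5 (-0.49) kept their direction and passed. Roe1 (0.17, adjusted p = 0.070), Tim9a (0.23, adjusted p = 0.094) and Tom40 (-0.06, adjusted p = 0.53) did not pass then. The number of all genes passing after this correction is not given here. Over all alternatives it ranged from 3619 to 5294, against 5000 as reported.

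**Figure D2:**
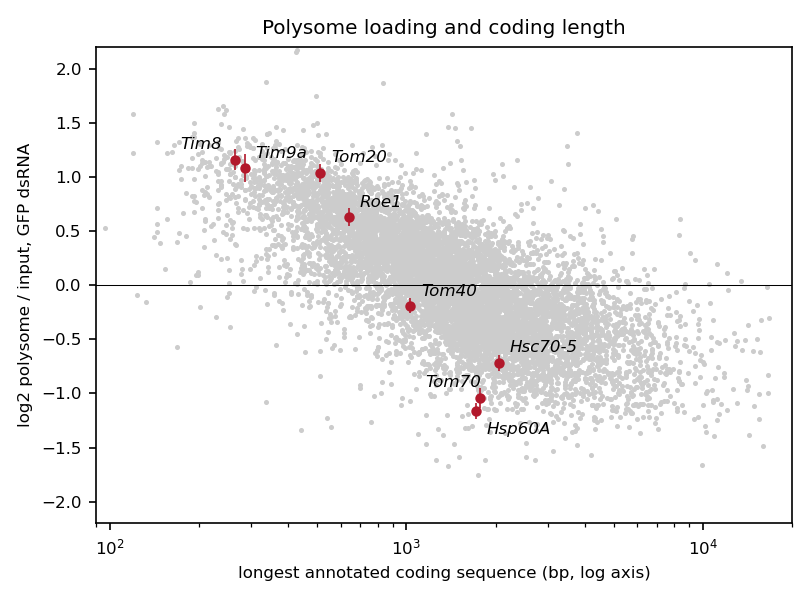
The horizontal axis gives the longest annotated coding sequence in bp on a log axis and the vertical axis the log2 ratio of polysome to input with GFP dsRNA. Grey points are tested genes, of which 13 lie outside the axes, and red points with SE bars are the 8 genes, which run from Tim8 at 1.16 to Hsp60A at -1.16.

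With porthos dsRNA the loading kept its sign for 7 of the 8 genes, and for all 8 the value was closer to 0. Tom20 had 0.91 ± 0.08, Tim9a 0.83 ± 0.13, Tim8 0.75 ± 0.09 and Roe1 0.34 ± 0.08, and all 4 passed as higher. Hsp60A (-0.79 ± 0.07), Tom70 (-0.58 ± 0.09) and Hsc70-5 (-0.43 ± 0.08) passed as lower. Tom40 had 0.06 ± 0.07 and did not pass (edgeR adjusted p = 0.53). Of all genes tested 47.8% passed here, 23.7% higher and 24.1% lower. The polysome and input libraries lay apart for 7 of the 8 genes, all but Tom40, and for 52% of all genes. After the correction for gene length Tom20 was at 0.51 (adjusted p = 5.5e-06), Roe1 at -0.03 (adjusted p = 0.79), Tim9a at 0.25 (adjusted p = 0.090), Tim8 at 0.24 (adjusted p = 0.026) and Hsc70-5 at -0.27 (adjusted p = 0.003).

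For 8 of these 8 genes the loading was nearer to 0 with porthos dsRNA than with GFP dsRNA, and for 63.2% of all genes tested. The median size of the loading, without sign, was 1.04 with GFP dsRNA and 0.66 with porthos dsRNA for the 8 genes, and 0.38 and 0.32 for all genes. The 63.2% is thus a share over genes with mostly smaller loadings. A share among genes with loadings as large as those of the 8 is not given here. Whether the move toward 0 is particular to these 8 genes was not tested. The 1708 tested genes with up to 1100 bp of exon had a median loading of 0.65 with GFP dsRNA and 0.50 with porthos dsRNA.

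**Figure D3:**
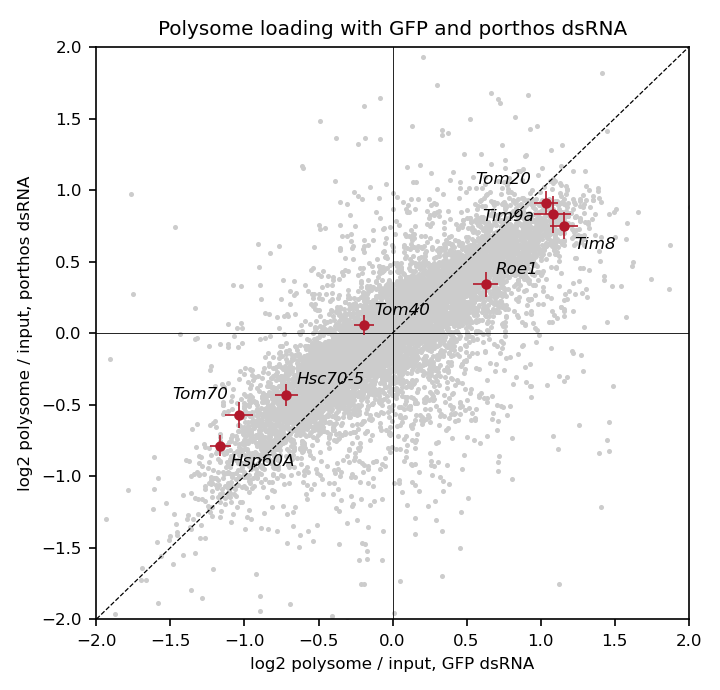
Each point is a gene, with the log2 ratio of polysome to input with GFP dsRNA on the horizontal and with porthos dsRNA on the vertical axis. Grey points are other tested genes, 24 of which lie outside the axes, red points are the 8 genes with SE bars in both directions, and the dashed line marks equal ratios. All 8 are nearer to 0 on the vertical than on the horizontal axis.

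The second comparison asked whether the mRNA level in the lysate changed when porthos was depleted. None of the 8 genes was called in input. Log2 changes ran from -0.08 ± 0.13 for Tim9a to 0.16 ± 0.09 for Tom70 (edgeR, adjusted p from 0.45 to 0.98), with a median of 0.01 beside 0.00 over all genes tested. At an unadjusted p under 0.05 there were 0 of the 8, beside 13.9% of all genes. DESeq2 and limma voom also called 0 of the 8, and 249 and 156 of the 9024 genes. Of all genes tested 1.72% were called in input, 0.997% higher and 0.72% lower.

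Hsc70-5 had 978, 1003 and 966 CPM in input with GFP dsRNA and 959.9, 1015 and 1022 CPM with porthos dsRNA, and the groups overlapped. Hsp60A had 461 to 552 CPM in the first and 513 to 520.4 CPM in the second group. Tom70 was the 1 gene whose groups did not overlap in input, with 197.6 to 214.5 CPM against 221.7 to 243 CPM. Such a separation was seen for 24.9% of all genes. Tom40, Tom20, Tim8, Tim9a and Roe1 overlapped between the treatments.

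The third comparison was of polysome fractions with porthos and GFP dsRNA. Tom70, Hsp60A and Hsc70-5 rose, Roe1 and Tim8 fell, and Tom40, Tim9a and Tom20 did not pass. Thus 5 of the 8 were called, 3 higher and 2 lower, where 18.4% of all genes tested were, 11.2% higher and 7.14% lower. The median log2 change of the 8 was 0.03, beside 0.00 for all genes. In 8 of 8 genes the 3 porthos libraries lay apart from the 3 GFP libraries, as they did for 29.6% of all genes. The change on polysomes went with coding length, longer genes having the higher values. Spearman's rho was 0.857 over the 8 genes and 0.259 over 8419 tested genes with a coding sequence, as a description. After the correction for summed exon length 5 of the 8 were called, 3 higher and 2 lower. The number of all genes called after this correction is not given here, so this count cannot be set against it. Over all alternatives the number of all genes called ranged from 853 to 2383, against 1658 as reported. Change beyond coding length was not tested.

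Sums of cell type markers also differed between these polysome groups. From GFP to porthos dsRNA the 10 plasmatocyte markers, most of it Col4a1, vkg and crq, had 969.3 to 1123 CPM and then 1126 to 1305 CPM. The 3 germline markers, most of it aub, had 94.9 to 105.2 CPM and then 125.6 to 178.8 CPM. The 4 markers of crystal cells and lamellocytes, most of it ItgaPS4, had 92.0 to 100.7 CPM and then 74.4 to 85.4 CPM. Over all libraries ItgaPS4 had 68.8 to 111.6 CPM, and PPO2, atilla and lz had 6.9, 2.17 and 0.400 CPM at most. This sum therefore mainly follows ItgaPS4, in input as well. In input the germline sum (219.5 to 223.7 against 248.2 to 255.8 CPM) and the crystal cell and lamellocyte sum (108.5 to 117.2 against 86.4 to 98.6 CPM) differed the same way, and the plasmatocyte sum overlapped. The part of these markers in the changes of the 8 genes was not tested.

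Among the outer membrane genes Tom70 changed the most. It had 93.2, 102.7 and 107.5 CPM on polysomes with GFP dsRNA and 149, 133.8 and 184 CPM with porthos dsRNA, so that the highest control library lay below the lowest porthos library. The log2 change was 0.62 ± 0.09 (SE; edgeR, adjusted p = 7.8e-05), a 1.54-fold rise. Without replicate 3 of the porthos group it was 0.46 (adjusted p = 0.00045). Tom40, the pore, had 109.7, 122.7 and 119.5 CPM against 128, 136 and 137.8 CPM, and its change of 0.19 ± 0.07 did not pass (adjusted p = 0.055). Tom20 had 460.1, 392 and 380.4 CPM against 373.9, 380.0 and 368.5 CPM, which is a change on the log2 scale of -0.14 ± 0.08 (adjusted p = 0.25). The other receptor, with the shorter coding sequence, thus had a value below 0 where Tom70 rose, and the difference between the genes was not tested.

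Tim8 fell on polysomes from 145.5, 119 and 122.9 CPM to 101, 109 and 90.3 CPM, which is a change on the log2 scale of -0.37 ± 0.09 (adjusted p = 0.0070). Its call rested on replicate 1 of the GFP group, the highest of the 6 libraries, without which the change was -0.29 (adjusted p = 0.054). With the length trend removed it was -0.22 (adjusted p = 0.044). Tim9a had 50.4, 42.4 and 40.5 CPM against 38.6, 36.4 and 31.1 CPM. Its log2 change was -0.33 ± 0.12 (adjusted p = 0.061), close in size to that of Tim8 and less precise at its lower count. It passed in 5 of 21 alternatives, among them no filter on low counts (-0.34, adjusted p = 0.028), and was -0.11 after the correction for gene length (adjusted p = 0.51).

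In the matrix, Hsp60A rose from 229, 228.7 and 224 CPM to 303, 289 and 306 CPM. The replicates of both groups lay close together, and the log2 change was 0.40 ± 0.07 (adjusted p = 0.00061), a 1.32-fold rise. Hsc70-5 rose from 596, 595 and 601 CPM to 753, 651.5 and 817 CPM, which is a change on the log2 scale of 0.31 ± 0.08 (adjusted p = 0.0063). Without replicate 3 of the porthos group its change was 0.21 and did not pass (adjusted p = 0.076). Nor did it in a fit of the 6 polysome libraries alone (0.31, adjusted p = 0.057). Roe1, the exchange factor for Hsc70-5, fell from 145.8, 127 and 118 CPM to 98.7, 108 and 97.9 CPM, which is a change on the log2 scale of -0.36 ± 0.08 (adjusted p = 0.0040).

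**Figure D4:**
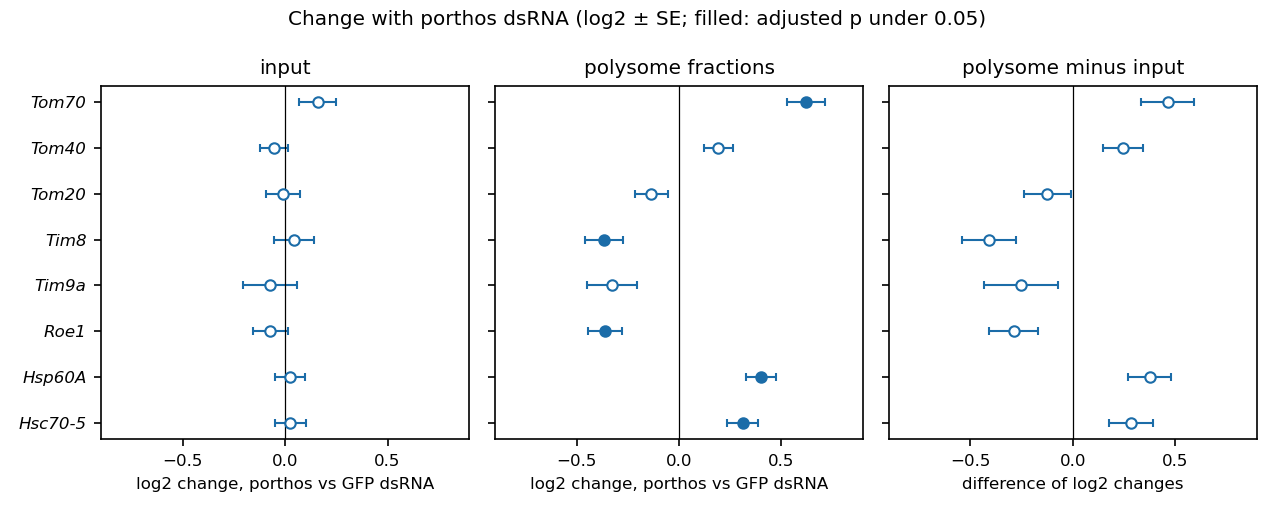
Points are log2 changes with porthos against GFP dsRNA and bars are SE from the fit to all 12 libraries, for input (left), polysome fractions (middle) and the difference of these changes (right). Filled points passed at an adjusted p under 0.05, which 5 genes did on polysomes and none did in input or in the difference.

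The fourth comparison was the difference between the change on polysomes and the change in input, which is a change in polysome loading relative to the average mRNA. None of the 8 genes was called. Tom70 had 0.46 ± 0.13 (edgeR, adjusted p = 0.099), Hsp60A 0.37 ± 0.10 (adjusted p = 0.096) and Hsc70-5 0.29 ± 0.11 (adjusted p = 0.20). Tom40 had 0.25 ± 0.10 (adjusted p = 0.22). Below 0 were Tim8 with -0.41 ± 0.13 (adjusted p = 0.14), Roe1 with -0.29 ± 0.12 (adjusted p = 0.24), Tim9a with -0.25 ± 0.18 (adjusted p = 0.53) and Tom20 with -0.13 ± 0.11 (adjusted p = 0.65).

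At an unadjusted p under 0.05 there were 6 of the 8, all but Tim9a and Tom20, beside 15% of all genes tested. The test called 9 genes of 9024 in all, or 0.0997%, 0.0776% higher and 0.0222% lower. DESeq2 called 2 of the 8, Tom70 and Hsp60A, and 227 of all genes, and limma voom called 0 of the 8 and 3 of all genes. Leaving out replicate 2 of the polysome porthos dsRNA group brought 4 calls (Tom70, Hsp60A, Hsc70-5 and Tim8), with 694 genes called in all, and leaving out any 1 of the other 11 libraries brought 0 of the 8. Without replicate 3 of the same group Tom70 had 0.31 (adjusted p = 0.25). Input was set aside from lysate that went onto the gradient, but the labels do not say that libraries of the same number share a lysate. A fit that takes each number within a treatment as 1 lysate called 3 of the 8, with Tom70 at 0.45 (adjusted p = 0.038), Hsp60A at 0.37 (adjusted p = 0.043) and Tim8 at -0.41 (adjusted p = 0.042), and 227 of all genes.

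Other genes of import and mitochondrial folding were taken from a hand-made list, of which 28 matched a row in the files and 18 were tested. In input 0 of the 18 were called by edgeR, and on polysomes 2 rose and 2 fell with porthos dsRNA (median 0.04), beside 1.72% of all genes in input and 18.4% on polysomes. A count of 4 in 18 is near that share. Trap1, the mitochondrial Hsp90, rose from 201 ± 1.20 to 287 ± 20.8 CPM on polysomes (log2 change 0.52 ± 0.07, adjusted p = 2.6e-05). Lon, a matrix protease gene, rose by 0.41 ± 0.08 (adjusted p = 0.00056). Alr, the sulfhydryl oxidase of the intermembrane space, which in yeast drives the oxidative folding of small Tim proteins, fell from 52.2 ± 6.29 to 33.2 ± 9.06 CPM (-0.65 ± 0.14 on the log2 scale, adjusted p = 0.0027). Its value in input was also below 0, at -0.41 ± 0.15 (adjusted p = 0.18), and its difference of changes was -0.24 ± 0.21 (adjusted p = 0.63). CG7394, whose RefSeq synonym is TIM14, had a log2 change of -0.44 ± 0.11 (adjusted p = 0.0079), and -0.28 without replicate 1 of the GFP group (adjusted p = 0.079). In the difference of changes 0 of the 18 were called.

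The loading of these 18 in control cells was higher for 9 and lower for 5 (median 0.42), beside 26.5% and 28.9% of all genes. Tom7, a small subunit of the outer membrane pore complex, had 1.23 ± 0.10, and Tim17b, a subunit of the inner membrane translocase, 0.81 ± 0.08. Lon had -1.06 ± 0.08 and ClpX, a matrix unfoldase, -0.84 ± 0.08. With porthos dsRNA 8 were higher and 3 lower (median 0.34), beside 23.7% and 24.1% of all genes, with Lon at -0.77 ± 0.07, Tim17b at 0.66 ± 0.08, Tom7 at 0.81 ± 0.10 and CG11267 at 0.82 ± 0.11. CG11267, with the RefSeq synonym Hsp10, encodes the co-chaperonin that caps Hsp60, and its level can be set beside that of Hsp60A. In input with GFP dsRNA it had 137 ± 11.3 RPKM and Hsp60A 205 ± 18.4 RPKM, and on polysomes 305.8 ± 74.4 RPKM and Hsp60A 91.6 ± 1.12 RPKM.

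Cytosolic and endoplasmic reticulum chaperone genes were followed in the same libraries. Of 16 heat shock and stress chaperone genes tested, 4 rose on polysomes with porthos dsRNA and 0 fell (median 0.28), and 0 were called in input. Over all genes 11.2% rose and 7.14% fell on polysomes, and 1.72% were called in input. The constitutive Hsp70 genes Hsc70-4, for the cytosol (0.50 ± 0.09, adjusted p = 0.00034), and Hsc70-3, for the endoplasmic reticulum (0.40 ± 0.09, adjusted p = 0.0031), rose on polysomes beside Hsc70-5. In control cells their loading was -0.90 ± 0.09 and -0.98 ± 0.09. DnaJ-1 (0.36 ± 0.09) and stv (1.33 ± 0.31) also rose. stv did not pass without replicate 3 of the porthos group (0.70, adjusted p = 0.066). DnaJ-1 did not pass without replicate 1 or 3 of that group, or without replicate 1 or 2 of the polysome GFP group (0.27 to 0.31, adjusted p from 0.061 to 0.076). The summed level of the 18 genes of the list on polysomes was 7618 to 7917 CPM with GFP dsRNA, and 9559, 7813 and 9070 CPM in replicates 1, 2 and 3 with porthos dsRNA. Tom70 and Hsc70-5 likewise were lowest in replicate 2 of those 3 libraries. A large part of the summed level was Hsc70-3, Hsp83 and Hsc70-4. Their polysome means were 1906, 1432 and 882 CPM with GFP dsRNA and 2515, 1641 and 1248 CPM with porthos dsRNA. Of the 16 tested genes, 11 had a polysome change above 0 and 5 below 0, among the latter Hsp23 (-0.11), Hsp26 (-0.10) and Hsp27 (-0.12). The part of a stress response in these values was not tested.

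Some counts may include reads of a neighbour, since the strand setting of the counting is not given. Tom70 shares 148 bp of exon (6.07%) with CG18788 on the opposite strand, which had 5.30 CPM at most. Tom20 shares 29 bp (2.88%) with Gabat, at 48.2 to 73.1 CPM. No exon of Tom40, Tim8, Tim9a, Roe1, Hsp60A or Hsc70-5 overlaps another annotated gene. Of the other import genes named, CG7394 shares 27.2% of its exon length with CG46412 on the opposite strand and Alr 10.7% with parvin on the same strand. ClpX shares 11.1% with CG4733 and Lon 9.73% with CG9372, both on the opposite strand.

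For each tested gene the 2 genes most like it were taken by Pearson's r of log2 CPM over the 12 libraries, as a description. Because input and polysome libraries form separate clusters, r mainly follows that split. The most alike were Ranbp16 (0.998) and AGO2 (0.995) for Hsc70-5, CG1951 (0.994) and Acadvl (0.993) for Tom70, and Ctf4 and orion (0.992 each) for Hsp60A. For Tom20 they were Vti1b (0.997) and His4r (0.994), for Tim8 CG17385 and Sf3b6 (0.989 each), for Tim9a Ssb-c31a (0.993) and CG32202 (0.989), and for Roe1 kraken (0.988) and CG1103 (0.984). Tom40, whose loading was near 0, had the lowest values, with CG15141 (0.905) and Or43b (0.888).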

How the data were processed

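The authors deposited raw counts, whole numbers of reads for each FlyBase gene, in separate files for the 12 libraries. The submitters' processing notes name dm6 as the build, with featureCounts 1.4.6 and HISAT2 2.1.0. Not given in the sources used here are the release of the annotation, the strandedness of the counting and what was done with reads in shared exons. Symbols, coordinates and exon lengths came from an Ensembl annotation in dm6 coordinates, and 16647 of 17023 identifiers matched a symbol.

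Counts were scaled by TMM and filtered with filterByExpr (edgeR 4.0.16, R 4.3.3), which left 9024 genes. All 12 libraries entered 1 quasi-likelihood fit with a term per group, tested in 5 contrasts. P-values were adjusted over all genes tested (Benjamini-Hochberg) and called under 0.05, and an SE is the size of the log2 change over the root of F. RPKM is CPM per kilobase of summed exon. The fitting script was tested on simulated data. Alternatives used DESeq2 1.42.0 and limma 3.58.1, other scaling and filters, blocks, a correction for summed exon length and leaving out each library.

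The labels number replicates without saying that they are separate cultures, so p-values measure a spread that may be technical. Replicates always differed by more than sampling noise (lowest chi-square per degree of freedom 2.3). The 10 genes, the lists and the tests were chosen with earlier results of these data known. Named besides the 10 genes were porthos, up to 4 called members per list and contrast with the smallest p, and the 2 genes most like each gene. Of the hand-made import list, 28 of 36 names matched. The name Sam50 was left out, because its synonym in RefSeq points to an RNA-binding protein gene. Promoter motifs were not searched, since no sequences were used here.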

Additional observations from a re-analysis of the deposited data

How the results depend on the processing

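The 8 tested genes gave 0 calls in input under every alternative run, and 4 to 7 calls on polysomes against 5 as reported (4 to 6 leaving out 1 library). In the difference of changes, 0 calls became 2 without a filter on low counts, 2 with DESeq2, 3 with a block per lysate and 0 to 4 leaving out 1 library. For the loading with GFP dsRNA 8 calls became 5 with the length trend removed. Signs changed, without a call, for Tom20 in input with the stricter filter (0.0035) and leaving out 1 library (-0.0784 to 0.0449), and leaving out 1 library for Tim8 (-0.0104 to 0.12), Tim9a (-0.219 to 0.0349) and Hsp60A (-0.0421 to 0.0854) in input. With the length trend removed the sign also changed for Tim9a in the difference of changes (0.0196) and for Roe1 in the loading with porthos dsRNA (-0.0333, from a called 0.34). The cause of these changes was not tested.

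Replicate numbers were not taken as pairs, since of 18 same-number pairs across groups 1 had deviations correlated above 0.1 (range -0.02 to 0.13). Between input and polysome of 1 treatment, the 6 same-number pairs were all above 0 (0.0304 to 0.126) and 11 of 12 pairs of different number were below 0. Each of the 12 libraries correlated best with its own number there. Deviations were taken from the mean of the 3 libraries of a group, so same-number values above 0 pull the other pairs below 0. These counts are therefore 1 observation and not separate support. It is at most a hint from the data that libraries of the same number share a lysate, not a fact of the design. With the replicate block 7 of the 8 genes were called on polysomes, Tom40 and Tim9a in addition, and 0 in input and in the difference. The number of all genes called with that block is not given here, so the added calls cannot be set against it. Over all genes, the number called ranged over the alternatives from 31 to 691 in input (155 as reported) and from 853 to 2383 on polysomes (1658 as reported). In the difference it ranged from 0 to 694 (9 as reported). For the loading it ranged from 3619 to 5294 with GFP dsRNA (5000 as reported) and from 2634 to 4504 with porthos dsRNA (4311 as reported). Scaling by library size alone moved the median loading of all genes with GFP dsRNA to 0.14. The fold between the highest and the lowest gene in RPKM stayed between 8.00 and 8.65. Low counts limit Tim9a, and Tim10 and Tim13 cannot be assessed.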
